A study of Mus musculus with 5 samples.

Results

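The genes described here encode the non-collagen structural proteins of the extracellular matrix. They comprise laminins and nidogens, basement membrane and large proteoglycans, elastic fibre proteins, lysyl oxidases, small leucine-rich proteoglycans, matricellular proteins, and fibronectin with matrilin-2. They were chosen by name, as a list of 51 genes in 7 classes. The choice used no rule on measured values, but earlier results of these data were known when it was made. A probe set carrying the gene's single symbol was found for 48 of the 51, among 22206 probe sets on the array, and each of the 48 had 1 such probe set. Fbn1, Efemp2 and Loxl2 were not analysed here.

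The cells were 3T3-L1, a mouse embryonic fibroblast line that becomes adipocytes under hormonal induction. All of them had been grown for 4 days in basal medium, then induced for 4 days with insulin at 5 µg/mL together with 1 µM dexamethasone and 0.5 mM IBMX. Insulin alone followed for 2 days, and a day without additions (1 day, basal medium) ended the differentiation. The mature adipocytes then spent 72 h in RPMI-1640 with 10% FBS. The 3 exposed samples shared that medium with MM.1S, a human multiple myeloma line, across a transwell membrane with 0.4 µm pores. The 2 control samples had the same medium alone. Myeloma cells therefore did not touch the adipocytes, and 1 line of each cell type was used. Total RNA of each sample was hybridised to 1 Clariom S mouse array, and all values below are the authors' log2 values, on which a difference of 1 is a 2-fold change. Nothing in the labels says that the replicates came from separately grown batches of cells, so the p-values measure only how far these samples spread, and that spread may be technical.

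The extracellular matrix of fat surrounds each adipocyte with a basement membrane of laminins, nidogens and perlecan, outside which lie fibrils held together by lysyl oxidases and decorated by small leucine-rich proteoglycans. Matricellular proteins such as tenascin-C and the thrombospondins are secreted into this matrix but act mainly as adaptors between cells, growth factors and fibres. Fibroblast-like preadipocytes make a fibronectin-rich matrix, and the laminin-rich basement membrane is laid down as they become adipocytes.

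No member passed the test. With limma's moderated test across all 22206 probe sets and Benjamini-Hochberg adjustment, 0 of 48 members had an adjusted p under 0.05, as did 0% of all probe sets. The smallest adjusted p on the whole table was 0.93. At an unadjusted p under 0.05, 1 member lay lower on exposed arrays (Tnc) against 1.68% of all probe sets, and 0 members lay higher against 1.82%. Counts of direction leaned one way: 31 of 48 members had a lower mean on exposed arrays (64.6%), against 50.1% of all probe sets. All 3 exposed arrays lay below both controls for 9 members (18.8%), against 8.84% of all probe sets. These were Nid2, Vcan, Fbln1, Loxl3, Dcn, Thbs1, Thbs2, Thbs3 and Tnc. Vcan and Thbs1 overlapped once each array was centred on its median, and Vcan and Dcn after a further quantile normalization. All 3 exposed arrays lay above both controls for 2 members, Lamc3 and Mfap4 (4.17%), against 8.5% of all probe sets, and Mfap4 overlapped under both of these scalings.

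The differences were small. The median over the 48 members was -0.093 (exposed minus control), with a range from -0.52 for Tnc to 0.67 for Lama2, beside a median of 0.00 for all probe sets. Leaving out exposed array 3 brought the members' median to -0.024, leaving out exposed array 1 to -0.056 and leaving out control array 1 to -0.053. The count of members with a lower mean moved less, from 28 to 35 over the 5 arrays left out in turn. For 47 of the 48 members, leaving out at least 1 of the 5 arrays moved the difference by over 1.5 times or turned its sign, and Tnc was the exception. The same count over all probe sets is not given here. Where a gene's difference without 1 array is given below, it is mostly one that came nearer to no difference. Leaving out another array of the same group moved the difference the other way. The 95% interval of the difference stayed within 2-fold in both directions for 45 of 48 members (93.8%), close to the 92.9% of all probe sets, so changes beyond 2-fold lay outside the intervals of those 45. Lama2, Lamc3 and Eln were the exceptions. For 42 of 48 members the 3 exposed arrays differed among themselves by more than the group means differed, as they did for 18159 of all 22206 probe sets. The number of arrays limits this precision, and in RNA from whole cultures fewer cells of a type and less RNA per cell cannot be told apart.

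**Figure D1:**
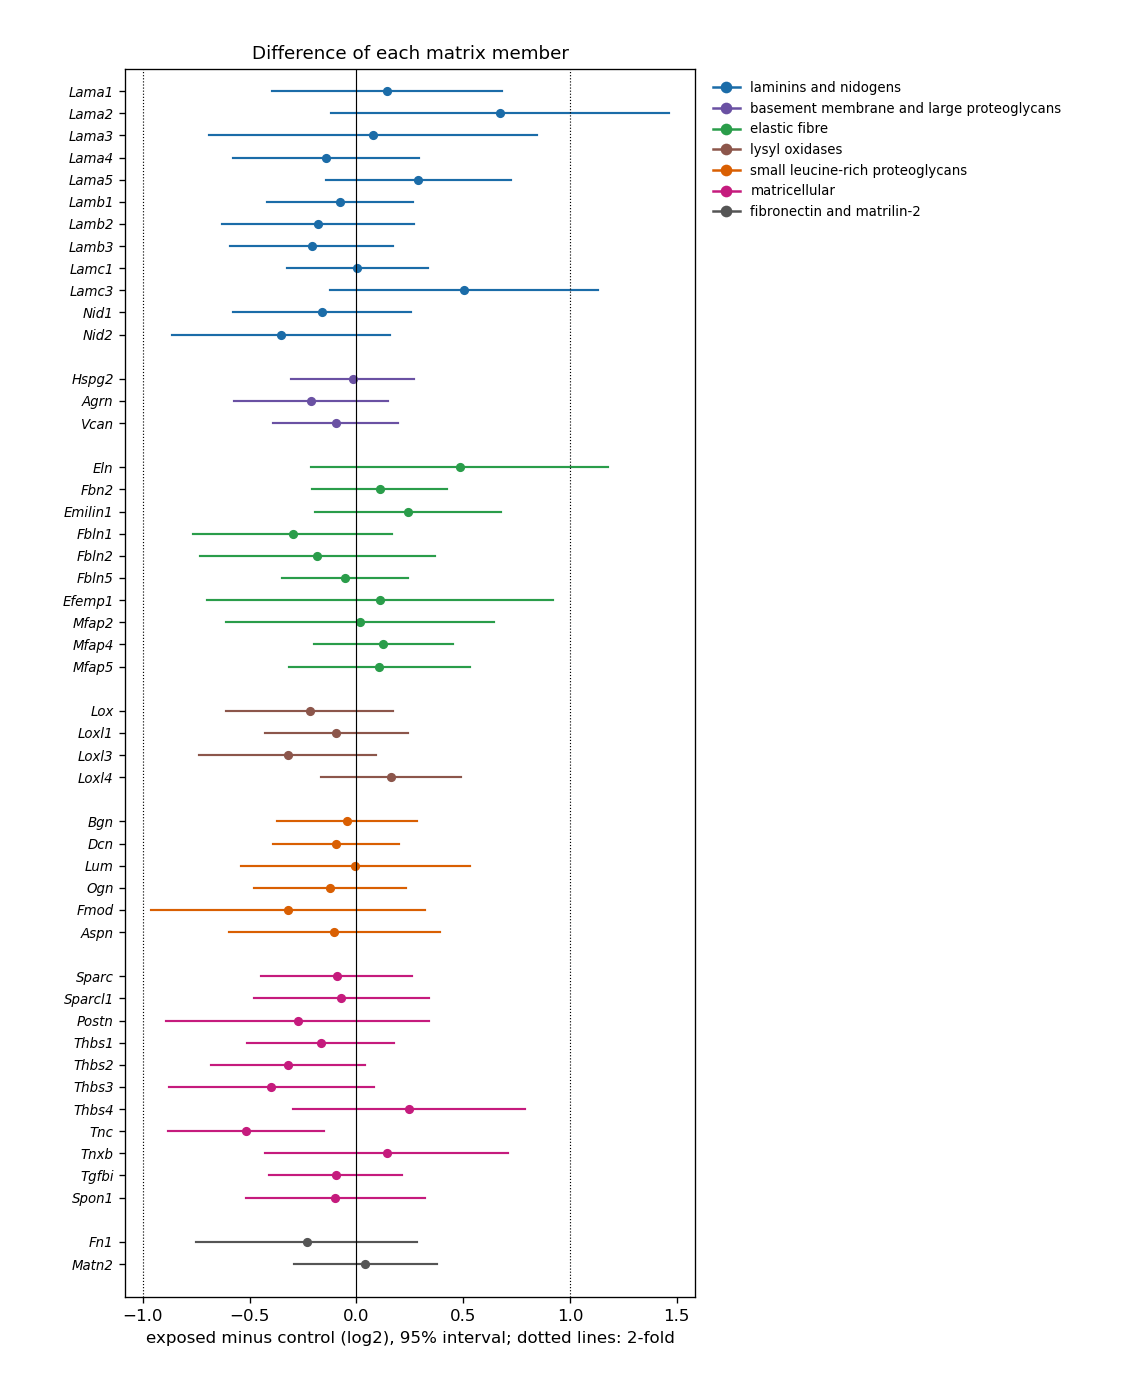
Exposed minus control difference of each of the 48 measured matrix genes on the log2 scale (horizontal axis), with its 95% limma interval (3 exposed and 2 control arrays); genes are grouped and coloured by class, and dotted lines mark 2-fold. The interval of Tnc, from -0.88 to -0.15, is the only one of the 48 that does not cross 0, and those of Lama2, Lamc3 and Eln pass the upper 2-fold line.

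Laminins are heterotrimers of the basement membrane, each built of an alpha, a beta and a gamma chain, and nidogens tie them to the collagen network. Of the 12 measured genes, 6 had a lower and 6 a higher mean on exposed arrays, with a median difference of -0.036, which was between -0.153 and 0.038 with 1 array left out. The abundant chains differed little: Lamc1 by 0.0047, Lamb1 by -0.077, Lama4, the alpha chain typical of fat and vessels, by -0.14, and Lamb2 by -0.18. Nid1 differed by -0.16, Lamb3 by -0.21, Lama1 by 0.15 and Lama3 by 0.079.

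Nid2, which encodes nidogen-2, was at 7.63, 7.83 and 7.18 on exposed arrays 1 to 3 and at 7.90 and 7.90 on the controls. The groups did not overlap, but exposed array 3 stood lowest by a wide margin. The difference was -0.35 (95% interval -0.86 to 0.16), and -0.17 without that array. Lamc3, a gamma chain of restricted distribution, was at 5.12, 4.25 and 4.53 on exposed arrays against 4.17 and 4.08 on controls. Here exposed array 1 was the high one, and the difference of 0.50 (interval -0.12 to 1.13) became 0.26 without it. Lama2, the alpha chain of skeletal muscle and nerve laminin, was at 4.01, 4.07 and 3.80 on exposed arrays against 3.86 and 2.72 on controls. The groups overlapped, and the difference of 0.67 rested on control array 2: without that array it was 0.10. Lama5, a widespread epithelial and endothelial alpha chain, was at 5.40, 5.30 and 5.14 against 5.22 and 4.76, a difference of 0.29 that became 0.065 without control array 2.

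Exposed array 3 was the lowest of the 5 arrays for 7 of these 12 genes, against 22.2% of all probe sets. Without it, Nid1 differed by -0.023, Lamb2 by -0.025 and Lama4 by 0.004. The means of these abundant genes on the remaining exposed arrays thus lay within 0.025 of the control means.

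Perlecan, agrin and versican carry long glycosaminoglycan chains. All 3 genes had a lower mean on exposed arrays, with a median difference of -0.097 (-0.050 without control array 2). Hspg2, the perlecan gene, was at 7.86, 7.90 and 7.81 on exposed arrays and at 7.87 on both controls. Its difference of -0.016 (interval -0.30 to 0.27) was among the smallest of the list, with the exposed arrays on both sides of the controls. Agrn, whose protein organises basement membranes at the nerve-muscle synapse, was at 6.73, 7.01 and 6.75 against 6.96 and 7.13, a difference of -0.21 with overlapping groups that was -0.13 without control array 2. Vcan, which encodes the hyaluronan-binding proteoglycan versican, was at 8.90, 8.94 and 8.86 against 8.95 and 9.04. Those groups did not overlap, though exposed array 2 and control array 1 lay almost together and the difference was only -0.097 (interval -0.39 to 0.20), or -0.050 without control array 2.

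Elastic fibres consist of an elastin core on a scaffold of fibrillin microfibrils, joined by fibulins, emilins and microfibril-associated proteins. This was the class with most members on the higher side: 7 of the 10 measured genes had a higher mean on exposed arrays and 3 a lower one, with a median difference of 0.11. That median was 0.028 without exposed array 3 and 0.026 without control array 2. Eln, the elastin gene, was at 5.70, 4.96 and 4.92 on exposed arrays and at 4.96 and 4.46 on controls. Exposed array 1 alone lay above both controls. The difference was 0.48 (interval -0.21 to 1.18), and 0.23 without exposed array 1 or control array 2. Emilin1, which lies at the interface of elastin and microfibrils, showed the same arrangement, at 5.62, 5.22 and 5.21 against 5.23 and 4.99. Its difference was 0.24, and 0.11 without exposed array 1.

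Fbln1, which encodes fibulin-1, was at 5.48, 5.61 and 5.05 on exposed arrays against 5.68 and 5.68 on controls. The groups did not overlap, with exposed array 3 furthest away, and the difference of -0.30 (interval -0.77 to 0.17) became -0.13 without it. Fbln2, a fibulin that binds fibronectin and basement membrane proteins, was at 7.94, 7.78 and 7.23 against 7.81 and 7.85. Only exposed array 3 stood apart, and the difference turned from -0.18 to 0.026 without it. Mfap4, a microfibril-associated glycoprotein, was at 5.00, 4.98 and 5.20 against 4.97 and 4.90. It did not overlap, but the nearest arrays of the groups differed by less than the exposed arrays did among themselves, and the difference was 0.13 (interval -0.20 to 0.46), or 0.054 without exposed array 3. The remaining members were Fbn2, a fibrillin of developing tissue, at 0.11, Mfap5 at 0.11, Mfap2 at 0.016, Efemp1 at 0.11 and Fbln5, needed for elastic fibre assembly, at -0.053.

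Lysyl oxidases are secreted copper enzymes that cross-link collagen and elastin. Of the 4 measured genes 3 had a lower and 1 a higher mean, with a median difference of -0.16 (-0.10 without exposed array 1 or control array 1). Lox, the founding member, was at 10.02, 10.28 and 9.89 on exposed arrays against 10.37 and 10.20 on controls, a difference of -0.22 (interval -0.61 to 0.17) with exposed array 2 between the controls. It was -0.13 without exposed array 3 or control array 1. Loxl3 was at 7.59, 7.98 and 7.98 against 8.26 and 8.09. Its groups did not overlap. The difference was -0.32 (interval -0.74 to 0.094), and -0.19 without exposed array 1, the lowest array. Loxl1, an enzyme tied to elastin maintenance, was at 7.47, 7.71 and 7.72 against 7.74 and 7.71, so that its difference of -0.093 came down to -0.012 without exposed array 1. Loxl4 was at 5.57, 5.40 and 5.65 against 5.36 and 5.40, a difference of 0.16, or 0.11 without exposed array 3.

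Small leucine-rich proteoglycans bind collagen fibrils and regulate their diameter and spacing. All 6 genes had a lower mean on exposed arrays, with a median difference of -0.10. That median was -0.045 without exposed array 1 and -0.162 without exposed array 3. By array, 6 of the 6 were below the control mean on exposed array 1 but 3 on each of the others. Dcn, the decorin gene, was at 10.79, 10.86 and 10.89 on exposed arrays and at 10.99 and 10.90 on controls. The groups did not overlap, and the difference was -0.097 (interval -0.39 to 0.20), or -0.055 without control array 1. Fmod, which encodes the keratan sulfate proteoglycan fibromodulin, was at 5.34, 6.19 and 6.05 against 6.21 and 6.15. Exposed array 1 lay far below the other 4 arrays, and the difference of -0.32 (interval -0.96 to 0.32) became -0.061 without it. Ogn, the osteoglycin gene, was at 8.62, 8.75 and 8.93 against 8.82 and 8.96, a difference of -0.12 that was -0.050 without exposed array 1. Aspn, the asporin gene, was at 8.30, 8.26 and 8.82 against 8.62 and 8.50, so that exposed array 3 was the highest of the 5. The difference was -0.10, but -0.28 without exposed array 3 and -0.002 without exposed array 2. Bgn, for biglycan, differed by -0.044 and Lum, for lumican, by -0.0053. Here exposed array 1, not array 3, was the lowest of the 5 arrays for 4 of the 6 genes, against 23.8% of all probe sets. All 6 lay above the median level of the table (4.81), where exposed array 1 was the lowest for 32.5% of probe sets.

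Of 11 measured matricellular genes 9 had a lower and 2 a higher mean, with a median difference of -0.098. That median was -0.052 without control array 1, -0.166 without exposed array 1 or exposed array 2, and -0.209 without control array 2. Tnc, Thbs1, Thbs2 and Thbs3 (4 of 11) lay below both controls on all 3 exposed arrays, as did 8.84% of all probe sets. The start regions of Tnc, Thbs2 and Thbs3 are shown because these were the 3 matricellular genes with the lowest differences. They were taken from RefSeq on GRCm38.p6, where 28 of the 48 measured members had a window of 250 bases before to 50 bases after an annotated start. For Tnc, which has 2 listed starts, the window of the downstream one is shown. The windows are Tnc at chr4:64046887-64047186 on the minus strand, Thbs2 at chr17:14694213-14694512 on the minus strand and Thbs3 at chr3:89214930-89215229 on the plus strand. Each is written 5′ to 3′ on the gene's strand, with capitals marking the letters TATAA (the core of the TATA box) and GGGCGG (the GC box) on either strand.
Tnc: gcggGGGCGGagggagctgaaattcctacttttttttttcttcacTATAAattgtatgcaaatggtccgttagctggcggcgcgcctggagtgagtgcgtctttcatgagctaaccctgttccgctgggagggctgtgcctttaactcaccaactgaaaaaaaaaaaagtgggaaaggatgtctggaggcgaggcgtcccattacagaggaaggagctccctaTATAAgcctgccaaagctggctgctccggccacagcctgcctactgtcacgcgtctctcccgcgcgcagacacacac
Thbs2: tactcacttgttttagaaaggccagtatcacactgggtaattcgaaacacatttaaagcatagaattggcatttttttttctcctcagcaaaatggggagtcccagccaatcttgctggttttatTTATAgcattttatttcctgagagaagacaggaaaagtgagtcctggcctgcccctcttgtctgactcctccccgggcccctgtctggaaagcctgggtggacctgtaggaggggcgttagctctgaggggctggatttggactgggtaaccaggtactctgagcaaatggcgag
Thbs3: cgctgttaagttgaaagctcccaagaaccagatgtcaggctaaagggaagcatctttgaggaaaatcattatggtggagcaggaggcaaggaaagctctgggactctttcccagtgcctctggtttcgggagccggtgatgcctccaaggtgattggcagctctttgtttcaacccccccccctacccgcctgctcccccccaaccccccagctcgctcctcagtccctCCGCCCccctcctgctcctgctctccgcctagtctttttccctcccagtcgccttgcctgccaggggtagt
The Tnc window held TATAA at 2 places, the nearer with its first base 27 bases before the start, and 1 GC box. The Thbs2 window held 1 TATAA, read on the opposite strand, whose leftmost base was 125 bases before the start. The Thbs3 window held 1 GC box 21 bases before the start, also on the opposite strand, and no TATAA. Over all genes, 24.9% of 32851 windows of this length held TATAA and 35.7% held GGGCGG. At least 1 window held them for 8 and 18 of the 28 members. Those counts are per gene, and some members had 2 windows, so they are not on the same footing as the shares per window. The 3 windows thus differed in these letters. These matches describe the sequence and are not evidence of factor binding.

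Tnc encodes tenascin-C, a large glycoprotein of wounds, tendons and tumour stroma that is sparse in most resting adult tissue. It was at 6.11, 6.46 and 6.18 on exposed arrays 1 to 3 and at 6.76 and 6.77 on the controls. All exposed arrays lay below both controls, and the exposed arrays spread over 0.35 while the controls differed by 0.0048. The difference was -0.52 (interval -0.88 to -0.15; limma, unadjusted p = 0.0135, adjusted p = 0.93), and between -0.62 and -0.45 with any 1 array left out. Tnc had an unadjusted p under 0.05 in each fit without 1 exposed array, but not in the fits without control array 1 or control array 2, which leave a single control.

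Thbs2 and Thbs1 encode the related thrombospondins that bind the receptors CD36 and CD47. Thbs2 was at 8.05, 8.16 and 7.99 on exposed arrays against 8.54 and 8.23 on controls. The exposed arrays lay close together below both controls, and the difference was -0.32 (interval -0.68 to 0.042), becoming -0.16 without control array 1. Without the other control the difference moved further down. Thbs1, whose product also activates latent transforming growth factor beta, was at 8.93, 9.01 and 8.72 against 9.10 and 9.02. Exposed array 2 lay almost at control array 2, and the difference was -0.17 (interval -0.51 to 0.18), or -0.085 without exposed array 3.

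Thbs3 belongs to the other thrombospondin subgroup, with Thbs4. It was at 4.65, 4.83 and 4.25 against 5.06 and 4.89, with no overlap and exposed array 3 lowest, and differed by -0.40 (interval -0.88 to 0.081), or -0.24 without exposed array 3. Thbs4 was at 5.03, 4.67 and 4.30 against 4.36 and 4.48, with exposed array 3 below both controls. Its difference of 0.25 became 0.066 without exposed array 1 and 0.43 without exposed array 3.

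Postn, which encodes periostin, a matrix protein of fibrotic tissue, was at 9.04, 9.12 and 9.67 on exposed arrays against 9.81 and 9.29 on controls. The groups overlapped, and the difference of -0.27 (interval -0.89 to 0.34) was -0.014 without control array 1. Leaving out the other control instead moved the difference further down. Sparc, a collagen-binding protein and the member with the highest level relative to all probe sets (percentile 99.9), differed by -0.093, and its relative Sparcl1 by -0.070. Tgfbi differed by -0.097, Spon1, for F-spondin, by -0.098, and Tnxb, for tenascin-X, by 0.14.

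Fibronectin is the soluble and fibrillar glycoprotein on which other matrix proteins assemble. Fn1 was at 11.01, 11.17 and 10.51 on exposed arrays against 11.11 and 11.15 on controls. Exposed array 2 was above both controls and exposed array 3 far below them, so that the difference of -0.23 (interval -0.75 to 0.28) was -0.041 without exposed array 3. Matn2, the matrilin-2 gene, was at 7.63, 7.76 and 7.81 against 7.80 and 7.59, a difference of 0.041 that turned to -0.064 without control array 2.

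**Figure D2:**
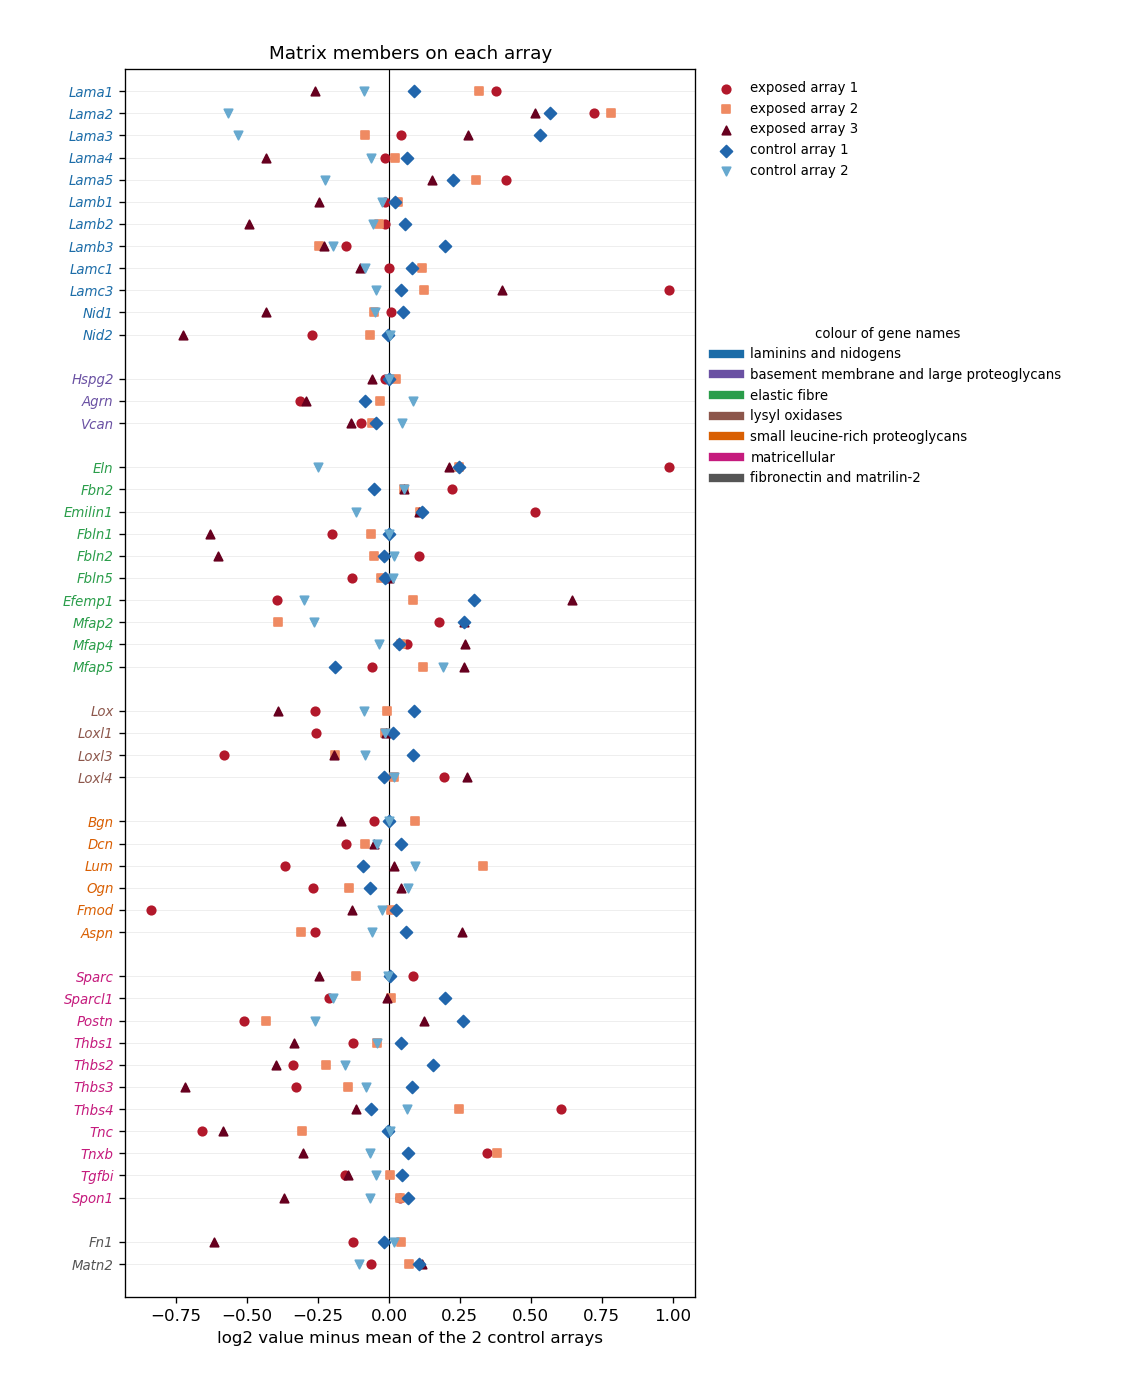
Log2 value of each of the 48 matrix genes on each of the 5 arrays, minus the mean of the 2 control arrays of that gene (horizontal axis); red marks are exposed arrays, blue marks are controls, and gene names are coloured by class. Exposed array 3 (dark triangles) lies far to the left for Nid2, Fbln1, Fbln2, Thbs3 and Fn1, and exposed array 1 (circles) for Fmod, Loxl3 and Tnc but far to the right for Lamc3 and Eln.

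The 3 exposed arrays did not share one profile. Exposed array 3 was the lowest of the 5 arrays for 21 of 48 members (43.8%), against 22.2% of all probe sets, and exposed array 1 for 13 (27.1%), against 23.8%. Exposed array 2 was the lowest for 3 members (6.2%), against 16.1% of all probe sets. Control array 1 was the highest for 18 members (37.5%), against 17.6%. Of the 37 members at or above the median level of the table, exposed array 1 was the lowest for 32.4%, against 32.5% of all probe sets at such levels. Exposed array 3 was the lowest for 45.9% of those members, against 25.6%, and control array 1 the highest for 37.8%, against 22.5%. Relative to the control mean, 31 members were lower on exposed array 1, whereas exposed array 3 had 30 such members and exposed array 2 had 23.

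The classes split by array. As the median deviation from the mean of the 5 arrays, laminins and nidogens stood at 0.083, 0.093 and -0.15 on exposed arrays 1 to 3 and at 0.15 and -0.079 on the controls. The controls of that class thus differed from each other by about as much as the lowest and highest exposed arrays. Matricellular genes stood at -0.090, 0.058 and -0.23 against 0.14 and 0.013, lowest on exposed array 3. Small leucine-rich proteoglycans stood at -0.20, 0.045 and 0.042 against 0.064 and 0.060. For that class only exposed array 1 was apart from the other 4. All probe sets together lay between -0.008 and 0.004 on every array. Those at or above the median level of the table stood at -0.041 on exposed array 1 and at 0.021 on control array 1. Those below that level stood at 0.026 and -0.041 on the same arrays.

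**Figure D3:**
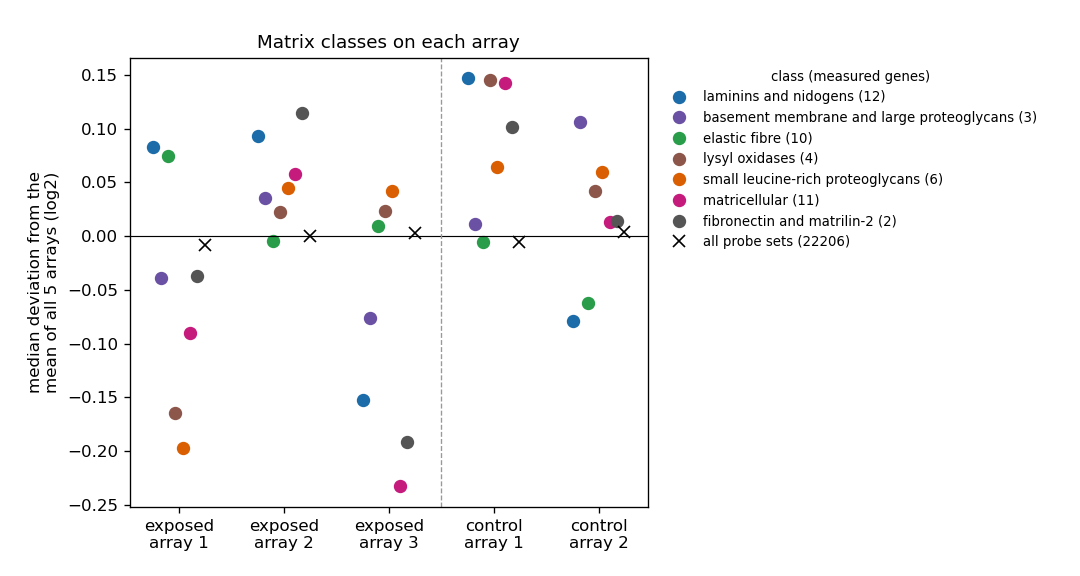
Median deviation of each class from its genes' means over the 5 arrays (vertical axis, log2), by array, with all 22206 probe sets as crosses; the number of measured genes is in the legend. Small leucine-rich proteoglycans are low on exposed array 1, at -0.20, matricellular genes on exposed array 3, at -0.23, and exposed array 2 has no class far below 0.

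Direction also went with level. Of the 37 members at or above the median level of the table (4.81), 28 had a lower and 9 a higher mean on exposed arrays, with a median difference of -0.097. The 11 members below it went the other way, 3 lower and 8 higher, with a median of 0.11. All probe sets showed a weaker tilt of the same kind: 56.1% of those at or above the median level had a lower mean (median -0.025), against 44.1% below it (median 0.033). All 3 exposed arrays lay below both controls for 8 of the 37 members at or above the median level and 1 of the 11 below it. Among all probe sets these counts were 1261 of 11103 and 702 of 11103. Above both controls were 1 and 1 of those members, against 781 and 1107 of the probe sets. The probe sets were then cut into 10 bins of equal size by level, and the median difference of its bin was subtracted from each member, a step added after the data were seen. The members' median was -0.054 after this step. It was -0.15 for matricellular genes, -0.13 for lysyl oxidases, -0.081 for small leucine-rich proteoglycans, 0.076 for elastic fibre genes and -0.006 for laminins and nidogens. The part that level played in the members' differences was not tested further.

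**Figure D4:**
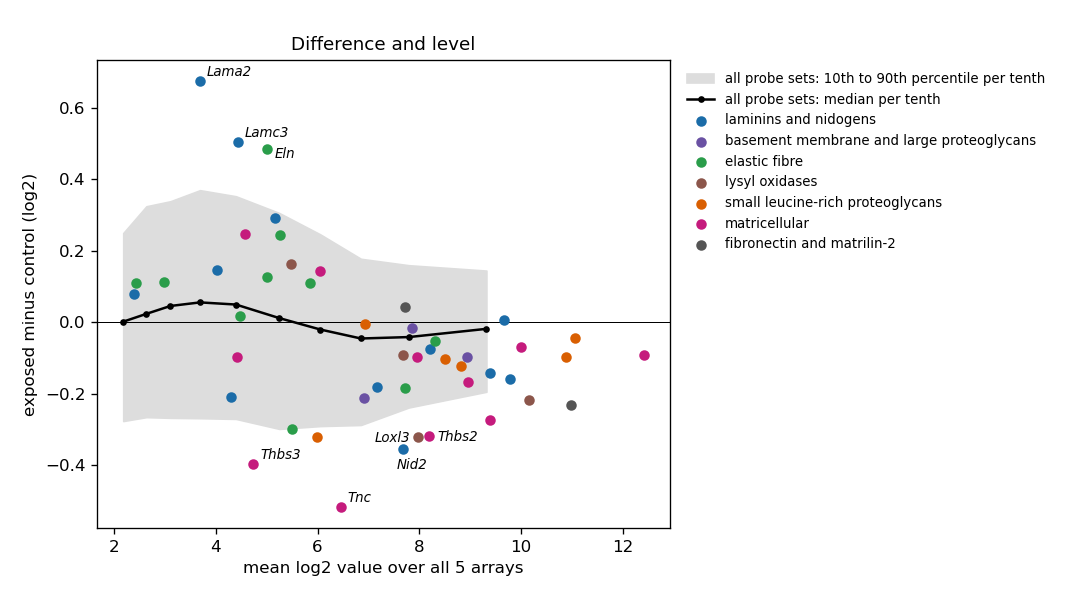
Exposed minus control difference (vertical axis, log2) against the mean log2 value over the 5 arrays (horizontal axis) for the 48 matrix genes, coloured by class, with the median (line) and the 10th to 90th percentile (band) of all probe sets in each of 10 level bins of equal size. Members above a level of about 7 lie mostly below 0. Of the labelled genes, Nid2, Loxl3, Thbs2, Tnc and Thbs3 lie below the band, and Lama2, Lamc3 and Eln lie above it at low levels.

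The cultures carried adipocyte markers at high levels in both groups. All 11 measured markers lay above the median of the table, the lowest at a mean of 6.24. Of the 11, 8 had a lower and 3 a higher mean on exposed arrays, with a median of -0.036. Adipoq, for adiponectin, averaged 11.6 in each group, Fabp4 differed by 0.0002 and Pparg by 0.020. Other markers, picked here after their values were seen, differed more. Retn, for resistin, was at 8.82, 9.09 and 9.22 on exposed arrays against 8.49 and 8.68 on controls, a difference of 0.46 without overlap (limma adjusted p = 0.93). Cebpa, an adipogenic transcription factor, and Plin4, a lipid droplet protein, lay below both controls on all exposed arrays and differed by -0.24 and -0.20. Plin1, the main lipid droplet coat protein of adipocytes, differed by -0.25, and by -0.003 without exposed array 3. The part of these marker differences in the members' differences was not tested. Of 13 measured preadipocyte and fibroblast markers, 12 had a lower mean on exposed arrays, with a median of -0.13 beside -0.093 for the matrix genes. After the subtraction of level bins the medians were -0.14 and -0.054. Their summed level was 13.5 on each exposed array and 13.6 on each control, without overlap at the third decimal (13.493 to 13.522 against 13.572 to 13.635). The fibrillar collagen genes Col1a1 and Col3a1, which belong to that marker list, differed by -0.034 and -0.20. The part that fibroblast-like cells played in the members' differences was not tested. The summed adipocyte level was 14.24 to 14.27 on exposed arrays and 14.24 to 14.30 on controls. Markers of other cells averaged below the median of the table except the macrophage gene Lyz2 at 5.02; the highest of 7 endothelial markers averaged 3.57, and the highest of 6 B and plasma cell markers 4.30. Their summed levels were 6.84 to 6.93 against 6.73 to 6.89 for 9 macrophage markers and 5.90 to 6.22 against 5.81 to 6.22 for B and plasma cell markers. The endothelial sum was 5.68 to 5.72 on exposed arrays against 5.78 to 5.80 on controls, without overlap, and its part in the result was not tested. By gene, 3 of the 7 endothelial markers had a lower and 4 a higher mean on exposed arrays, with a median difference of 0.046. The groups overlapped for each of the 7.

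Other genes of matrix biology were read from the same fit. Of 34 measured further matrix glycoproteins and proteoglycans, 20 had a lower and 14 a higher mean, with a median of -0.023 and 0 called. Mfge8, a secreted bridge to phosphatidylserine and integrins, had the lowest difference, at 7.55, 7.73 and 7.17 on exposed arrays against 7.99 and 7.92 on controls (-0.47, interval -0.94 to -0.012; limma adjusted p = 0.93). Egflam, for pikachurin, had the highest at 0.37. Of 24 measured matrix receptors, 15 had a lower and 9 a higher mean, with a median of -0.053 and 0 called. Ddr1, a collagen-binding receptor kinase, was at 4.62, 4.60 and 4.45 against 4.86 and 5.22. It differed by -0.48 (interval -0.86 to -0.096, limma adjusted p = 0.93). The difference was -0.30 without control array 2 and -0.665 without control array 1. Bcam, a laminin receptor, differed by 0.21, which exposed array 1 alone carried: without it the difference was -0.11.

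Of 25 measured enzymes that build glycosaminoglycan chains, 13 had a lower and 12 a higher mean, with a median of -0.002, a mean of -0.077 and 0 called. Relative to the control mean, 13, 19 and 15 were lower on exposed arrays 1 to 3 in that order. On all exposed arrays, 4 lay below both controls, against 8.84% of all probe sets, and 1 lay above both, against 8.5%. The extremes were Hs6st2, a heparan sulfate sulfotransferase, at -0.89 with an interval from -2.29 to 0.51, and Ndst2, which also modifies heparan sulfate, at 0.23. The Hs6st2 difference was -0.22 without control array 1 and -1.565 without control array 2. In the transforming growth factor beta pathway, a main inducer of matrix genes in fibroblasts, 10 of 15 genes had a lower and 5 a higher mean, with a median of -0.049 and 0 called. Smad2, a signal transducer of that pathway, had the lowest difference at -0.37 and Tgfb2, a ligand, the highest at 0.26.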

How the data were processed

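Gene expression was measured on 5 arrays, 3 of adipocytes exposed to myeloma cells and 2 of controls. Per the submitters' processing notes the authors used RMA and Partek, and the deposited values are log2 expression per probe set (1.20 to 13.2, array medians 4.80 to 4.88). Their versions are not given in the sources used here, nor is a genome build. Probe sets were named from the platform annotation where it gave 1 symbol, which held for 19572 of 22206.

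Differences were fitted to all probe sets with limma 3.58.1 (R 4.3.3), by linear model and empirical Bayes moderation with 3 residual degrees of freedom. Tests were two-sided, with Benjamini-Hochberg adjustment over the table. The same model was also run on simulated data built from the spread of the real fit, and that result is not given here. The main fit had no covariate, as the labels do not state which exposed sample belongs with which control. The sample titles carry numbers, and a match by these was not tried. Values on every array are given for the 4 members of a class with the largest absolute differences and for members whose groups do not overlap, and in addition for Thbs4, chosen after its values were seen. The lowest and highest genes of each further list are named. Alternatives covered the replicate block, variance moderation, array weights, a level filter, scaling and each array left out. The members and lists were chosen with earlier results of these data known.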

Additional observations from a re-analysis of the deposited data

How the results depend on the processing

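No alternative called a member: the count at an adjusted p under 0.05 was 0 in all 14 fits, the one reported included. The deviations of same-numbered arrays from their group means correlated at -0.014 and -0.032. These values cannot decide whether samples were paired. The deviations of the 2 controls mirror each other, and other matches of exposed to control arrays were not tried. With the replicate block, which matches arrays by number, 2 members had an unadjusted p under 0.05 (Eln and Tnc) in place of 1, against 3.55% of all probe sets. The medians were then -0.024 over all members and 0.028 for elastic fibre genes. Exposed array 3 has no partner by number, so these medians equal the values without it. An intensity trend in the prior gave 2 members (Thbs2 and Tnc), against 3.47% of all probe sets. With 1 exposed array left out, members at an unadjusted p under 0.05 numbered 1 to 3, against 3.42% to 4.23% of all probe sets. Fits without a control array leave a single control and are not counted here. With any 1 of the 5 arrays left out, members without overlap numbered 15 to 26. Fewer arrays overlap less by construction, and 29.1% to 45.1% of all probe sets did not overlap in those settings. With 1 array left out, the median over all members ranged from -0.133 to -0.024 and that of elastic fibre genes from 0.026 to 0.132, while the mean of the elastic fibre genes was 0.066. The count of members with a lower mean was 28 to 35 over these settings, a check added after the data were seen. Under either further scaling, 8 of the 11 members without overlap kept it; Vcan and Mfap4 lost it under both, Thbs1 under median centring and Dcn under quantile normalization. Over 14 alternatives, including the level adjustment added later, 34 of 48 members kept the sign of their difference and 14 changed it. Some alternatives could not change a sign, as they leave each member's difference as it was. These were the intensity trend, the fit without moderation, the level filter and the mean of a gene's probe sets. The replicate block gave the same differences as leaving out exposed array 3. The median of laminins and nidogens changed sign under the replicate block (0.007), without control array 1 (0.038) and as a mean (0.048). With so few arrays, differences within 2-fold could not be separated from the spread between arrays for nearly all members.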
